A study of Mus musculus with 6 samples.

Results

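The genes described here are 40 genes of the integrated stress response and of tRNA charging. They were chosen by name for their place in this pathway, with earlier results of these data known. Of the 40 genes, 38 had a probe on the array and 31 had a probe that could be tested, out of 9408 genes tested in all. Total RNA from the brains of C57/BL6 mouse embryos at E12.5 was hybridised to Illumina MouseRef-8 BeadChips, 1 array per sample. The 3 knockout samples carried Nestin Cre (Cre+) on alleles that were Rest GTi/GTi and p53 fl/fl, and the 3 control samples were Rest GTi/GTi and p53 fl/fl without Cre. Both groups thus carry an invertible gene trap in Rest, the gene for a repressor of neuronal genes, together with floxed p53 alleles. In the knockout embryos Cre acts in Nestin+ neural progenitors and their progeny, and other cells of the dissected brain keep the alleles as they are in controls. The samples are labelled as biological replicates, with no litter, sex or slide, so that p-values measure the spread between these 6 samples. The paper's title for the data calls the groups littermates, without the litter of each sample.

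The integrated stress response is a pathway that slows protein synthesis when cells meet stress such as a lack of amino acids, misfolded protein in the endoplasmic reticulum, or viral RNA. Each kind of stress activates its own kinase, these kinases phosphorylate the initiation factor eIF2 alpha, and translation falls in general while that of the transcription factor ATF4 goes up. ATF4 and its partners then raise genes for amino acid synthesis, amino acid transport and tRNA charging, and genes that feed back on the pathway. In the developing brain dividing progenitors use amino acids heavily, and the stress response has been linked to the balance between progenitor division and neuron formation.

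None of the 31 genes passed the test between knockout and control brains. Levels are log2 intensities after background correction and quantile normalization, and differences are knockout minus control on that scale, so that a difference of 1 means a doubling. With limma and adjustment over all 13755 probes tested, 0 probes were called at an adjusted p under 0.05, or 0.0% of the probes, and 0 of the 31 genes were called. The smallest adjusted p of any of these genes was 0.910 with limma, for Slc7a3. Before adjustment, 2 of the 31 genes (6.45%) had a limma p under 0.05, Slc7a3 with a higher and Nupr1 with a lower level in knockout brains, against 4.17% of all genes tested. Of these, Slc7a3 was detected on all 6 arrays, while Nupr1 entered the test through the controls, being above background in all 3 of them but in only 1 knockout sample. All 3 knockout samples lay above all 3 control samples for Slc7a3, Slc3a2 and Chac1, which is 9.68% of the genes, against 4.0% of all genes. All 3 lay below for Shmt2, or 3.23%, against 5.07% of all genes. These shares of the 31 genes rest on 1 to 3 genes each. For a single gene the smallest p that an exact permutation test of 3 against 3 samples allows is 0.1, two-sided, so that test could not reach 0.05.

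The differences lay on both sides of 0. Of the 31 genes, 17 (54.8%) had a higher mean in knockout brains and 14 a lower one, while 48.7% of all genes had a higher mean. The median difference over the 31 genes was 0.0076, against -0.0054 over all genes tested, and the differences ranged between -0.68 and 0.54. For 23 genes the difference was smaller than 0.25 in size. The precision sets what these values can show: the standard error of a gene had a median of 0.14, and the 95% interval of the difference reached a median of 0.49 away from 0 at its far end and at most 1.29. With 3 samples a group, changes that lie within these intervals are not excluded, and the values do not show that the groups are alike.

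**Figure D1:**
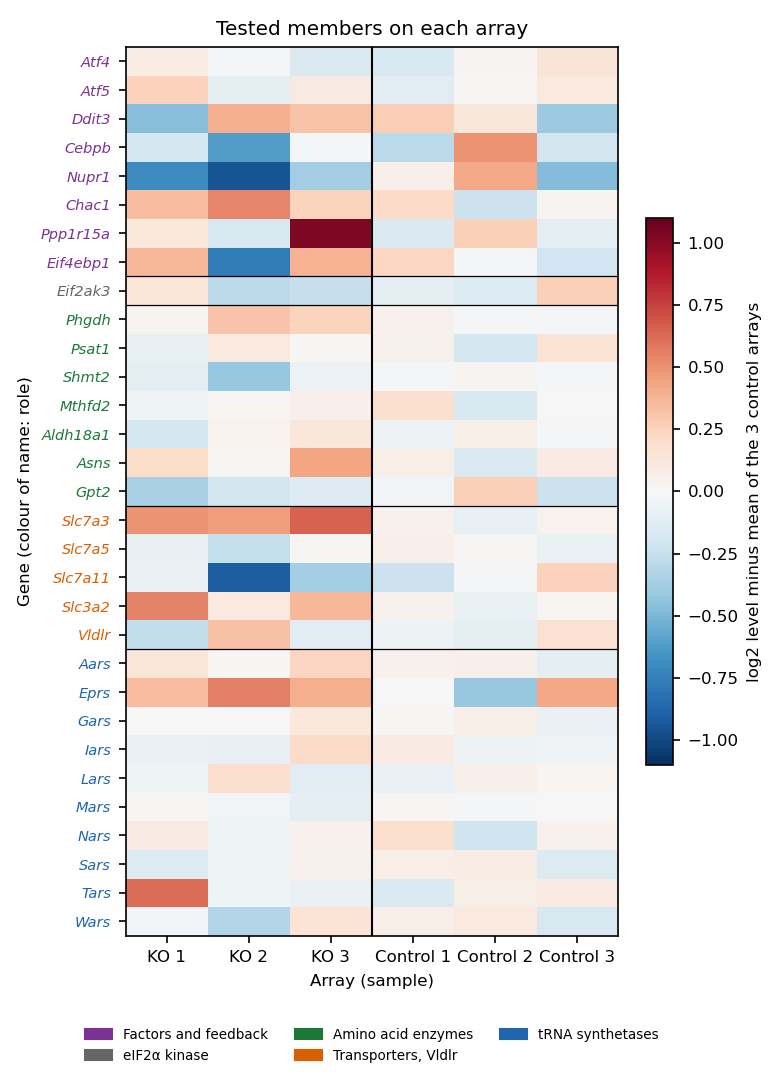
Log2 level of each of the 31 tested genes (rows, ordered by role) on each of the 6 arrays (columns, 3 knockout left of 3 control), as the difference from the mean of the 3 control arrays. Red is above and blue below that mean, so that the control columns of a row mix both colours by construction. Some rows, such as Slc7a3, Slc3a2 and Chac1, are red in all 3 knockout columns. Others, such as Nupr1 and Shmt2, are blue in all 3.

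Many of these genes are known targets of ATF4, which pairs with C/EBP proteins on a composite DNA element, written here as TGATGNAA. The element was searched on both strands of 300 bases around the start of each gene, 250 before and 50 after it, in the RefSeq promoters of the mouse build GRCm38.p6. A promoter was matched for 33 of the 40 genes, all but Eif4ebp1, Slc7a3, Slc7a5, Cars, Lars, Nars and Wars, and 12 of the 33 (36.4%) held the element, against 1219 of 27025 genes (4.51%) with a promoter of that length. The 12 genes were Atf3, Nupr1, Trib3, Chac1, Pycr1, Asns, Slc7a11, Vldlr, Aars, Gars, Iars and Tars. The list was drawn up with such targets in it, so the share describes the list and is no result of the arrays. The element is shown for the genes with the larger differences in either direction and for Asns, Aars and Tars as examples of an enzyme and of synthetases. Each window is on the strand of its gene, 5′ to 3′, with the element in capitals, as TGATGNAA or as its reverse complement. Only 1 element is marked per gene. Slc7a11 held another, which begins in the last bases of its window, and Aars held another after its start site.
Chac1, plus strand, chr2:119351033-119351072: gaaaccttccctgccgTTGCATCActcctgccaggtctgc
Nupr1, minus strand, chr7:126625557-126625596: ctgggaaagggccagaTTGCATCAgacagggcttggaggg
Slc7a11, minus strand, chr3:50443656-50443695: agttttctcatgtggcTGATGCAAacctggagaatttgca
Asns, minus strand, chr6:7693210-7693248: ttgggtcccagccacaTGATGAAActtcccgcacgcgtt
Aars, plus strand, chr8:111033714-111033753: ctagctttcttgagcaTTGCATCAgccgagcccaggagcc
Tars, minus strand, chr15:11399659-11399689: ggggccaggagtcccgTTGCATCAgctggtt
Genes with this element differed in both directions between knockout and control brains. Of the 9 tested genes with the element, 6 were higher and 3 lower in knockout brains, with a median difference of 0.04. Of the 16 tested genes whose promoter window lacked these letters, 8 were higher and 8 lower, with a median of 0.0022. The genes shown cover that range, with Chac1 at 0.37 and Nupr1 at -0.68, and Nupr1 was above background in only 1 knockout sample.

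The transcription factors at the head of the response had levels in knockout brains that overlapped those of controls. Atf4, whose protein drives the target genes, measured 10.29, 10.19 and 10.05 in knockout samples 1 to 3, against 10.04, 10.24 and 10.35 in control samples 1 to 3. The groups covered nearly the same range, and the difference was -0.04 with a 95% interval between -0.36 and 0.29. Since ATF4 is controlled mainly at translation, its mRNA level does not report its protein. Ddit3 (CHOP), a factor induced by lasting stress and tied to cell death, measured 8.32, 9.18 and 9.11 in knockout samples, against 9.06, 8.92 and 8.39 in control samples. In each group 1 sample was low, knockout 1 and control 3, and the difference was 0.08 with a standard error of 0.28. A second Ddit3 probe gave 0.10. Atf5, a relative of ATF4 that is translated in the same way, differed by 0.08.

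Cebpb, a C/EBP factor that partners ATF4, measured 7.79, 7.37 and 7.97 in knockout samples, against 7.69, 8.48 and 7.78 in control samples. Control 2 was the high sample, and the other two control samples lay inside the knockout range. The difference of -0.27 (SE 0.26) was -0.03 without control 2 and -0.14 on log2 of the deposited intensities. Atf3 and Cebpg were too dim to test. Atf3, a stress-induced repressor of the same family, was detected on 0 knockout arrays and 1 control array. Cebpg, another partner of ATF4, was detected on 2 knockout arrays and 0 control arrays. It measured 7.34, 6.66 and 6.06 in knockout samples, against 6.32, 6.33 and 6.36 in control samples, and the groups overlapped, with knockout 3 below the controls and at background.

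Among the targets that feed back on the response, the differences ran in both directions. Chac1, an enzyme that breaks down glutathione and a sensitive target of ATF4, measured 8.59, 8.79 and 8.50 in knockout samples, against 8.46, 8.02 and 8.29 in control samples. The groups did not overlap, although knockout 3 and control 1 lay only a little apart. The difference was 0.37 (SE 0.16), or 1.29-fold, with an unadjusted limma p of 0.0515 and an adjusted limma p of 0.999. It was smaller, at 0.22, on log2 of the deposited intensities.

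Nupr1, a small stress-induced chromatin protein, had the most negative difference of the 31 genes. It measured 6.39, 6.13 and 6.70 in knockout samples, against 7.14, 7.50 and 6.60 in control samples. Control 3 lay inside the knockout range, so the groups overlapped, and the probe was above background in 1 knockout sample and in all 3 control samples. The difference was -0.68 (SE 0.26), with a 95% interval between -1.29 and -0.07 and an unadjusted limma p of 0.0342. Most of the knockout values lie at background, so that the size is not well defined: the difference was -0.39 with normexp at an offset of 50 and -0.24 on log2 of the deposited intensities.

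Trib3, a pseudokinase that restrains ATF4, was too dim to test, with detection on 0 knockout arrays and 1 control array. It measured 6.19, 5.91 and 5.74 in knockout samples, against 5.77, 6.41 and 6.78 in control samples, and values that low carry no order. Ppp1r15a (GADD34), which brings a phosphatase to eIF2 alpha and so ends the response, measured 8.44, 8.14 and 9.35 in knockout samples, against 8.16, 8.58 and 8.22 in control samples. Knockout 3 alone was high, and the difference of 0.32 was -0.03 without it and 0.21 on log2 of the deposited intensities. Eif4ebp1, a brake on cap-dependent translation, measured 10.82, 9.68 and 10.84 in knockout samples, against 10.68, 10.44 and 10.24 in control samples. Knockout 2 alone was low, and the difference of -0.01 was 0.37 without it.

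Of the kinases that start the response, 2 were listed. Eif2ak3 (PERK), which senses misfolded protein in the endoplasmic reticulum, differed by -0.14 (SE 0.18). Eif2ak4 (GCN2), which senses uncharged tRNA, was detected on 0 arrays, with values of 5.36, 5.43 and 5.27 in knockout samples, against 5.42, 5.55 and 5.23 in control samples. These values lie at background, so that GCN2 mRNA was not measurable here.

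**Figure D2:**
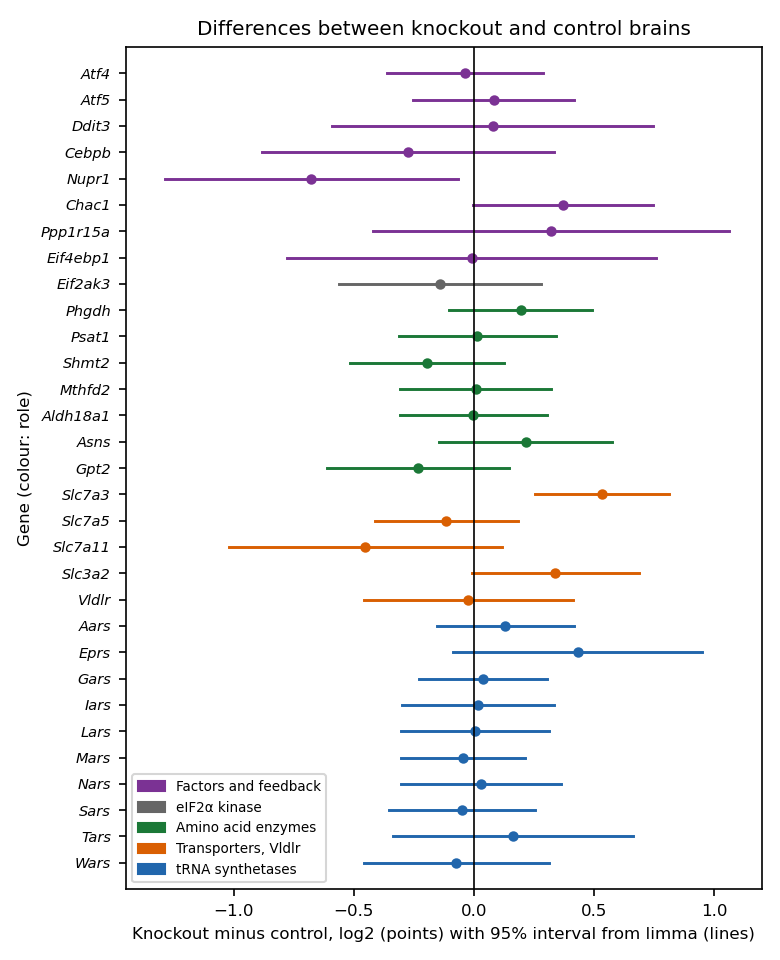
Knockout minus control difference (log2, horizontal axis) of each of the 31 tested genes, with the 95% interval from limma as a line and the role of the gene as colour. The intervals of Slc7a3 and Nupr1 lie to one side of 0, and the other 29 include 0.

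The enzymes that make serine, one-carbon units, proline, asparagine and alanine had a median difference of 0.0076 over the 7 tested, 4 of them higher and 3 lower in knockout brains. Phgdh, which takes the first step from glycolysis to serine, measured 10.67, 10.96 and 10.89 in knockout samples, against 10.69, 10.62 and 10.62 in control samples. Knockout 1 sat among the controls and the other two knockout samples above them, and the difference was 0.20 (SE 0.13). Psat1, the next enzyme of that path, differed by 0.01, and Psph, the last, was detected on 0 arrays.

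Asns, which makes asparagine and is a classic target of the element shown above, measured 12.44, 12.25 and 12.67 in knockout samples, against 12.30, 12.08 and 12.33 in control samples. Knockout 2 lay among the controls, and the difference was 0.22 (SE 0.15). Its 3 tested probes gave differences between 0.22 and 0.38, all higher in knockout brains.

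Shmt2, the mitochondrial enzyme that passes a carbon from serine to folate, measured 9.84, 9.53 and 9.88 in knockout samples, against 9.93, 9.97 and 9.93 in control samples. All knockout samples lay below all controls, with knockout 2 lowest. The difference was -0.20 (SE 0.14), and -0.08 without knockout 2, and the second Shmt2 probe gave 0.10. Gpt2, the mitochondrial alanine transaminase, measured 9.65, 9.80 and 9.86 in knockout samples, against 9.98, 10.27 and 9.77 in control samples, a difference of -0.23 (SE 0.16). Control 3 lay inside the knockout range. Mthfd2, which acts after Shmt2 in the mitochondrial folate path, differed by 0.01, and Aldh18a1, the first enzyme of proline synthesis, by -0.0033. Pycr1, the last enzyme of proline synthesis, is not analysed here.

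The amino acid transporters and Vldlr held the gene with the smallest p, and of the 5 tested 2 were higher and 3 lower in knockout brains. Slc7a3, a transporter for arginine, lysine and ornithine at the cell membrane, measured 7.87, 7.84 and 8.02 in knockout samples, against 7.42, 7.29 and 7.41 in control samples. The knockout samples all lay above the controls, with a gap larger than the spread inside either group. Slc7a3 averaged 7.91 ± 0.10 in knockout brains and 7.37 ± 0.07 in control brains (SD, n = 3 each). The difference was 0.54 (SE 0.12), or 1.45-fold, with a 95% interval between 0.26 and 0.81 and an unadjusted limma p of 0.00278. After adjustment over all probes the limma p was 0.910. The difference was 0.24 on log2 of the deposited intensities, and a second Slc7a3 probe was detected on 0 arrays.

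Slc7a3 lies on the X chromosome, and the samples differed in Xist, the RNA that coats the inactive X in female cells. Xist measured 12.16, 6.53 and 6.53 in knockout samples, against 12.13, 6.61 and 12.31 in control samples. Knockout 1 and controls 1 and 3 were thus high, so that the mix of sexes was uneven between groups. The part of sex in the Slc7a3 difference was not tested.

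Slc3a2 (4F2hc), the heavy chain that SLC7A5 and SLC7A11 need at the membrane, measured 9.83, 9.39 and 9.65 in knockout samples, against 9.33, 9.21 and 9.31 in control samples. The groups did not overlap, with knockout 2 just above the controls. The difference was 0.34 (SE 0.15), with an unadjusted limma p of 0.0544 and an adjusted limma p of 0.999, and it was 0.46 without knockout 2. Its light chain Slc7a5 (LAT1), the carrier of leucine and other large neutral amino acids, differed by -0.11.

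Slc7a11 (xCT), which brings in cystine for glutathione, measured 7.57, 6.74 and 7.27 in knockout samples, against 7.41, 7.63 and 7.90 in control samples. Knockout 1 lay inside the control range and knockout 2 was lowest. The difference was -0.45 (SE 0.24), -0.22 without knockout 2, and -0.18 on log2 of the deposited intensities. Slc7a1, a relative of Slc7a3 with the same substrates, was detected on 0 arrays. Vldlr, a Reelin and lipoprotein receptor that ATF4 can induce, differed by -0.02, and over its 3 tested probes the differences lay between -0.11 and 0.10.

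**Figure D3:**
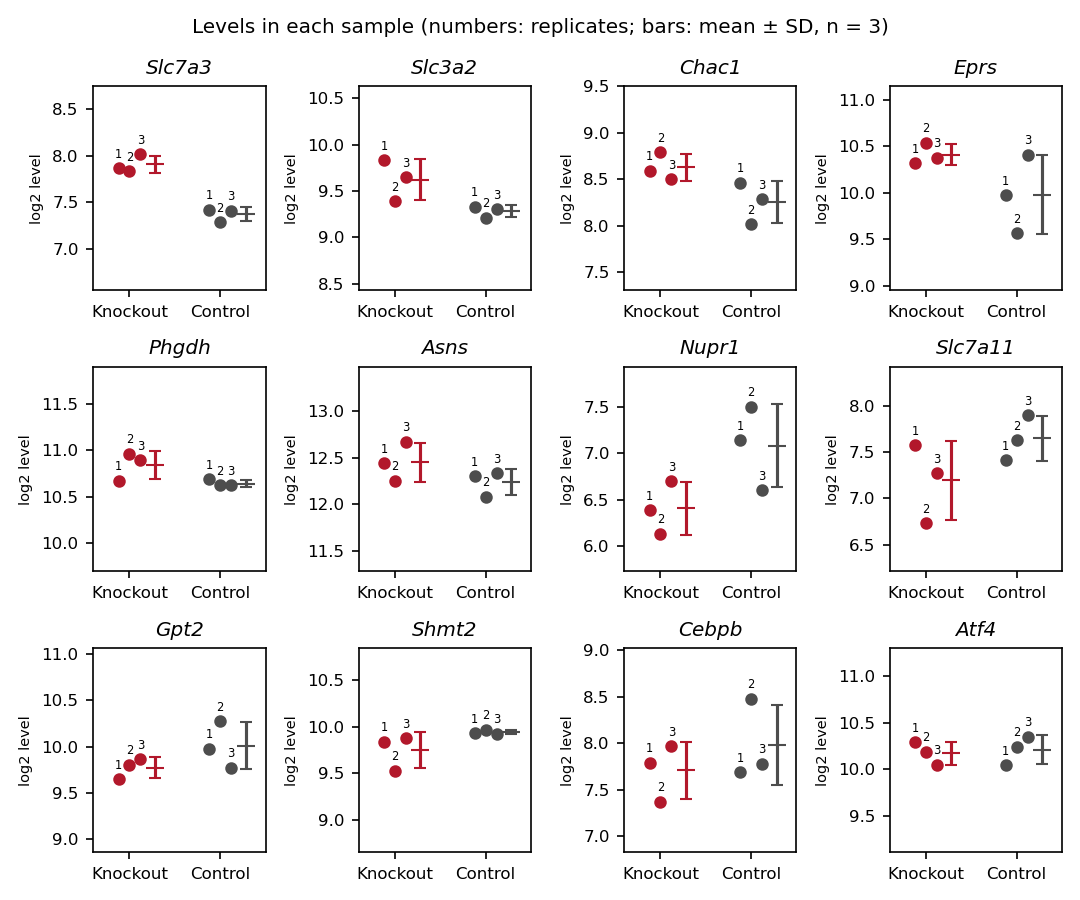
Log2 level in each sample (points, numbered by replicate, knockout left of control) with mean ± SD (n = 3) for 12 genes, each panel spanning the same range of log2 units. Slc7a3, Slc3a2 and Chac1 have every knockout point above every control point, and Shmt2 has every knockout point below.

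The cytosolic tRNA synthetases load each tRNA with its amino acid. Of the 10 tested, 7 were higher and 3 lower in knockout brains, with a median difference of 0.02 and a range between -0.07 and 0.43. The far end of their 95% intervals had a median of 0.36, against 0.58 for the other 21 genes. Aars, for alanine, differed by 0.13, Gars, for glycine, by 0.04, Nars, for asparagine, by 0.03 and Lars, for leucine, by 0.0040. Iars, for isoleucine, differed by 0.02, Mars, for methionine, by -0.04, Sars, for serine, by -0.05 and Wars, for tryptophan, by -0.07. Cars, for cysteine, was detected on 0 arrays, and the tRNA exporter Xpot is not analysed here.

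Eprs, the fused synthetase for glutamate and proline, had the largest difference of the 10. It measured 10.32, 10.54 and 10.38 in knockout samples, against 9.98, 9.56 and 10.41 in control samples. The knockout samples were close together while the controls were spread out, and control 3 lay inside the knockout range. The difference was 0.43 (SE 0.22), with a second probe at 0.32, and leaving out 1 sample at a time gave 0.22 to 0.64. Tars, for threonine, measured 11.09, 10.43 and 10.40 in knockout samples, against 10.32, 10.54 and 10.57 in control samples. Knockout 1 alone was high, and the difference of 0.16 was -0.06 without it.

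Where a synthetase had several tested probes, these did not always give the same sign. The differences lay between 0.16 and 0.43 for Tars, between 0.02 and 0.13 for Iars, between -0.04 and 0.19 for Mars, between -0.05 and 0.35 for Sars and between -0.16 and 0.37 for Wars. Of the 19 tested synthetase probes, 15 were higher in knockout brains. Several probes measure the same gene, so they are not independent, and 9 of the 19 were not the brightest of their gene. Of these 9 probes, 8 were higher in knockout brains, against 58.3% of probes of that kind over all genes.

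The neighbours of the pathway, 75 genes in 5 lists of which 53 were tested, showed 23 higher and 30 lower means in knockout brains, with a median difference of -0.04 and 0 calls with limma at an adjusted p under 0.05. The other cytosolic synthetases and their scaffold proteins had 6 of 9 tested genes higher. Aimp2, a scaffold protein, was at 0.19, with a second probe at -0.14. Vars, the valine synthetase, was at -0.20 with all knockout samples below all controls. Its other tested probes, at -0.23 and -0.22, overlapped between groups. The mitochondrial synthetases had 5 of 12 higher, with Vars2 at 0.17 and Sars2 at -0.25, and Sars2 again had all knockout samples below all controls. The subunits of eIF2 and its exchange factor eIF2B, with their kinases and phosphatase partners, had 5 of 10 higher, with Eif2b5 at 0.11 and Ppp1r15b, the constitutive partner of the eIF2 alpha phosphatase, at -0.42. The chaperones of the endoplasmic reticulum had 4 of 13 higher, with Hspa5 (BiP) at 0.25 and Hsp90b1 (GRP94) at -0.21.

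Of 14 further ATF4 targets 9 were tested, 3 higher and 6 lower in knockout brains. Sesn2, a leucine sensor that both ATF4 and p53 can induce, measured 7.31, 7.31 and 6.72 in knockout samples, against 6.12, 6.70 and 6.60 in control samples. Knockout 3 lay just above the highest control, and the difference was 0.64 (SE 0.23) with an unadjusted limma p of 0.0278 and an adjusted limma p of 0.999. A second Sesn2 probe was detected on 0 knockout arrays and 1 control array. The paper measured Sestrin2 (Sesn2) by qRT-PCR in E12.5 brain, the stage of these arrays, and does not say whether any samples were shared. It reports that raised p53 pro-apoptotic targets, among which it counts Sestrin2, returned to control levels when p53 was deleted as well. Stc2, a secreted protein of the stress response, measured 6.58, 6.65 and 6.74 in knockout samples, against 7.41, 7.15 and 7.16 in control samples. The groups did not overlap, and the difference was -0.58 (SE 0.13), with an unadjusted limma p of 0.00273 and an adjusted limma p of 0.910. Cth, an enzyme that makes cysteine, and Slc1a4, a carrier of alanine, serine and cysteine, were also below all controls in all knockout samples, at -0.50 and -0.24. Over the 53 tested neighbours, 1 gene had all knockout samples above and 5 had all below the controls, against 4.0% and 5.07% of all genes. Sesn2 was detected on 2 of 3 control arrays and Cth on 2 of 3 knockout arrays. Some genes that ATF4 is known to induce were higher (Sesn2, Slc7a3 and Chac1) and others lower (Stc2, Cth and Nupr1). These genes were singled out from those tested, and none was called with limma at an adjusted p under 0.05. Nupr1 was above background in only 1 knockout sample. No conclusion on ATF4 targets as a set is drawn from them.

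Markers of several cell types stood apart on the array of knockout 2. On knockout 2, the median of 8 tested markers of mesenchyme and meninges differed from the control mean by -2.79, and the 8 were all lowest on that array, while the medians of the other 5 arrays lay between -0.63 and 0.36. On the same array the markers of choroid plexus had a median of -1.66, with 3 of 5 lowest there and Otx2 highest there. Those of endothelium and pericytes had a median of -0.84, with 4 of 6 lowest there. The 5 markers of erythroid cells had a median of -0.63, with 4 lowest there. The 9 tested markers of young neurons had a median of 0.44 there, with 7 of them highest on that array, against -0.07 to 0.03 on the other 5 arrays. By brightest probe, Dcn (mesenchyme), Ttr (choroid plexus), Sox17 (endothelium) and Hba-a1 (erythroid cells) were lower in all 3 knockout samples than in all controls. They were 1 of 8, 1 of 5, 1 of 6 and 1 of 5 tested markers of their lists, and the others overlapped between groups by that probe. Among dimmer tested probes, those of Col3a1, Dcn and Pecam1 also lay below in all knockout samples, and those of Aif1 and Hbb-y above. Stmn3 (young neurons), Nes (progenitors) and C1qb (microglia) were higher in all 3 knockout samples, as 1 of 9, 1 of 6 and 1 of 8. Over all genes tested, 5.07% lay below in this way and 4.0% above. On knockout 3 the mesenchyme markers had a median of 0.31, with 2 of the 8 highest on that array. The 31 stress response genes had a median of 0.01, -0.04 and 0.06 on knockout samples 1 to 3, against 0.05, 0.02 and 0.01 on control samples 1 to 3. On knockout 2, 6 of the 31 genes had their highest and 10 their lowest value. Without knockout 2 the median difference of the 31 genes was 0.0043. The part of cell makeup in single genes that were lowest on knockout 2, such as Slc7a11, Nupr1, Cebpb and Shmt2, was not tested, and in whole tissue fewer cells of a type and less RNA per cell cannot be told apart. For the tissue label, 6 of 8 progenitor markers and 9 of 10 young neuron markers could be tested, and Pax6, Prom1 and Nefl were too dim.

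**Figure D4:**
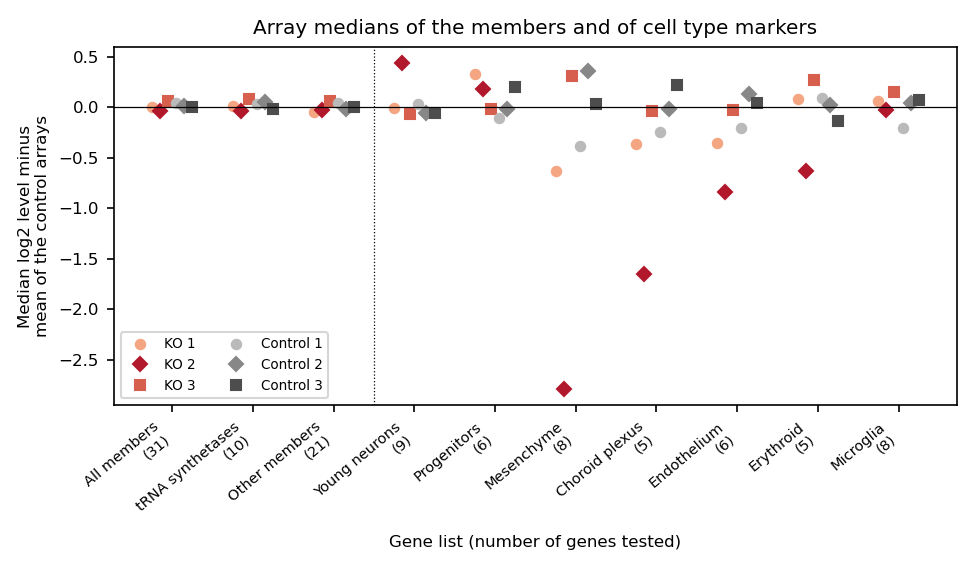
Median log2 level of each gene list (horizontal axis, number of tested genes in brackets) on each array, as the difference from the mean of the 3 control arrays. The stress response genes lie near 0 on all 6 arrays, while the mesenchyme markers reach -2.79 on knockout 2.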

How the data were processed

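Per the study's methods, the authors read the BeadChips with BeadStudio 3.0 and quantile-normalized them with lumi (version not stated in these sources). The deposited table gives an intensity and a detection p-value per probe and array. The sorted intensities of the 6 arrays differed by at most 1.61%. From 2 empty ID cells on, probe IDs stood 2 lines away from their values, for 21807 of 25699 lines. Same-gene probe pairs correlated at r = 0.482 after realignment and 0.25 as deposited (6232 pairs, which are not independent), so IDs were realigned, leaving 25696 probes. A second deposited table held the same intensities in 154176 of 154182 values (relative tolerance 1e-4) and served only for that comparison. Gene names came from the platform annotation.

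Values were background-corrected with neqc (offset 16, controls inferred from the detection p-value), quantile-normalized and log2-transformed in limma 3.58.1 (R 4.3.3). Probes detected at a p under 0.05 on at least 3 arrays were kept. limma's lmFit and eBayes compared the groups, two-sided, with Benjamini-Hochberg adjustment over all 13755 probes. Each gene is given by its brightest tested probe. The fit was checked on simulated data. Between 13416 and 13889 probes were detected per array, and the number of arrays limits precision.

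The genes and lists were chosen with earlier results of these data known. Values in every sample were given for the 5 genes with the smallest p in each direction, for Atf4, Ddit3, Trib3, Asns, Chac1 and Eif2ak4, and for those of the 31 whose groups did not overlap; from each neighbouring list the gene with the smallest p in each direction was named. Ppp1r15a, Eif4ebp1, Tars, Cth, Slc1a4 and Lars2 were added after their values were seen. Alternatives were other background corrections, filters, variance models, the methods' t-test, a replicate block, other probe rules and leaving out each sample. Rest and p53 transcripts are not used here to check the genotypes.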

Additional observations from a re-analysis of the deposited data

How the results depend on the processing

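None of the 31 genes was called with limma under any of the alternatives run, and the smallest adjusted limma p of any of them under any setting was 0.667, for Slc7a3. Of the 31 genes, 15 kept their sign under every alternative that kept the realigned IDs and tested them (13 for Nupr1 and 14 for the others), and 16 changed sign under at least 1. The count of these genes at an unadjusted p under 0.05, which was 2, was 1 on log2 of the deposited intensities, 1 with the methods' t-test, 3 with detection required on all 6 arrays, 3 with no filter on dim probes, and 1 to 3 when 1 sample was left out, being 1 without control 2 and 3 without control 3. The count of all called probes was 1 in place of 0 with limma's trend and robust options, 1 on log2 of the deposited intensities and 1 with normexp at an offset of 50. The median of the transporters and Vldlr was -0.02, against 0.10 with no filter on dim probes, and it lay between -0.079 and 0.099 when 1 sample was left out. For the enzymes that range was -0.082 to 0.063. The cause of these shifts was not tested.

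Replicate numbers are shared between the groups, and the labels do not say whether they pair samples. The deviations of same-numbered samples from their group means correlated at -0.01, -0.08 and -0.15. Those of samples with unlike numbers correlated at -0.03 to 0.12. With so few samples these values cannot show whether samples of the 2 groups shared a litter. Fitting the replicate block left 1 of the 31 genes at an unadjusted p under 0.05, in place of 2, while 0 were called and the median difference was 0.0076.

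Dim probes limit what the signal can show. Of the 31 genes, 30 were detected on all 6 arrays, but 7 further genes were not tested because their probes were at background on most arrays. The sizes given for Slc7a3, Chac1, Slc7a11, Nupr1, Cebpb and Ppp1r15a depend on the background correction.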

Other observations

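Probes other than the brightest of a gene gave another split of directions. The 31 genes had 46 tested probes, and the 15 that were not the brightest of their gene were higher in knockout brains in 13 cases (86.7%) and lower in 2, with a median difference of 0.14. Over all genes, 58.3% of the 3540 probes of that kind were higher in knockout brains, with a median of 0.04. The 15 probes belong to 10 genes, with 9 probes in synthetases, so they are not independent, and 0 of them had an unadjusted limma p under 0.05. Leaving out 1 sample at a time gave 10 to 14 of the 15 higher and medians between 0.10 and 0.23. Their medians relative to the control mean were 0.08, 0.30 and 0.01 on knockout samples 1 to 3, against -0.01, -0.10 and 0.11 on control samples 1 to 3. The knockout samples did not all lie above the controls. Of the 10 genes with several tested probes, 5 had probes of 1 sign throughout. This comparison was made after the values had been seen, and its cause was not tested.

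Lars2, the leucine synthetase of mitochondria, had the widest spread of the neighbouring genes. It measured 10.36, 9.69 and 7.07 in knockout samples, against 10.57, 9.63 and 10.45 in control samples. Knockout 3 alone was low, and the difference of -1.17 had a standard error of 0.81.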
